A study of Mus musculus with 2 samples.

Results

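The long non-coding RNAs Lncpint, Tug1, Pvt1, Kcnq1ot1 and Miat and the microRNA host transcripts Mir155hg, Mir22hg, Dleu2 and Mir17hg were chosen by gene name, and make up 9 of the 55536 annotated genes in the tables. All 9 names were found in the gene tables, with 61 transcript models between them. Both libraries came from primary macrophages grown from the bone marrow of C57BL/6J mice and given Lipid A, the TLR4-binding portion of bacterial lipopolysaccharide, at 100 ng/ml for 40 min. RNA was taken from the nucleoplasm, the soluble part of the nucleus, and sequenced after depletion of ribosomal RNA. The libraries were biological replicates 1 and 2 of this 1 group and carried the same donor identifier, so their spread may be smaller than that between animals. Replicate 1 was made from 1 µg of RNA and replicate 2 from 500 ng, so the 2 replicates and the 2 RNA inputs cannot be told apart. Age and sex were not collected. No untreated cells, second time or other fraction was analysed here, so no level below is a response to Lipid A.

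A microRNA starts as a hairpin inside a longer primary transcript. In the nucleus, Drosha and its partner Dgcr8 cut the hairpin out, exportin 5 carries it to the cytoplasm, Dicer trims it to a short duplex, and an Argonaute protein keeps the mature strand. The bases at positions 2 to 8 of that strand, the seed, pair with target messages. Long non-coding RNAs such as Kcnq1ot1, Tug1 and Lncpint are enriched in the nucleus, where several of them act on chromatin, and miR-155 is a microRNA that activated macrophages are known to make.

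The annotation placed 10 hairpin genes of 65 to 107 nt inside 4 of the transcripts, on the same strand. They give 19 mature microRNAs in RefSeq (build GRCm38.p6), with 16 different seeds. The arm usually held to be the main product is given here for each hairpin, 5′ to 3′, with the seed in capitals, because 3 seeds recur and tie the host transcripts to families of targets.
miR-155-5p (Mir155hg): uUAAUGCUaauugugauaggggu
miR-22-3p (Mir22hg): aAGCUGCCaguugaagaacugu
miR-15a-5p (Dleu2): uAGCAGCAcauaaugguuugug
miR-16-5p (Dleu2): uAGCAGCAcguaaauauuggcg
miR-17-5p (Mir17hg): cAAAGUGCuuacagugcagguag
miR-20a-5p (Mir17hg): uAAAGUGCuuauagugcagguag
miR-18a-5p (Mir17hg): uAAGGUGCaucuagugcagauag
miR-19a-3p (Mir17hg): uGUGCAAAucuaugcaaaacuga
miR-19b-3p (Mir17hg): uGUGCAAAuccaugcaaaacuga
miR-92a-3p (Mir17hg): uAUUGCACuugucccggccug
The seed AGCAGCA was shared by the Dleu2 products miR-15a-5p and miR-16-5p. Within Mir17hg, AAAGUGC was shared by miR-17-5p and miR-20a-5p, and GUGCAAA by miR-19a-3p and miR-19b-3p. No seed was shared between hosts.

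Expected counts, the fractional fragment counts that remain after ambiguous fragments are shared out, summed to 19630046 in replicate 1 and 18434601 in replicate 2. Values are TPM, a library's transcripts scaled to a fixed total after correction for length, from the alignment-based gene tables unless a FASTQ-derived value is named, and ± is the SD over n = 2. All 8 macrophage markers were detected, at a median of 176 ± 90.4 TPM. Among 19 markers of T cells, B cells, neutrophils, erythroid cells and fibroblasts, 9 were at 0 in both libraries, Cd3e, Cd3g, Trac, Pax5 and Elane among them, and only Cd4 reached 1 TPM in both (mean 19.15). Those 19 markers summed to 23.9 TPM in replicate 1 and 17.5 in replicate 2, and their part in the levels below was not tested. Genes with an effective length of at least 200 nt held 37.2% of all TPM in replicate 1 and 26.0% in replicate 2, so that TPM of long transcripts was lower in replicate 2 as a whole. In bulk RNA, fewer cells that make a transcript and less of it per cell cannot be told apart.

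Of the 9 transcripts, 8 were detected, taken as at least 1 TPM in both replicates, and only Miat was not. The same was true of 19.4% of all genes, 7.23% of the 10155 long non-coding genes and 40% of the 22028 protein-coding genes. The median over the 9 was 48.1 TPM in replicate 1 and 35.7 in replicate 2 (41.9 ± 8.79). The median detected long non-coding gene stood at 3.64 ± 1.35 TPM and the median detected protein-coding gene at 7.38 ± 1.78. Together the 9 took 0.234% and 0.212% of the expected counts (0.223% ± 0.0157), and 1.31% ± 0.051 of those of long non-coding genes.

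The levels fell into 3 tiers that were the same in both replicates. Lncpint, Mir22hg, Mir155hg and Dleu2 lay between 101 and 327 TPM, Tug1 between 35.7 and 48.1, and Kcnq1ot1, Mir17hg and Pvt1 between 1.86 and 5.55. The 4 most abundant held ranks 9, 10, 11 and 16 among the 734 detected long non-coding genes. Their order within the tier was not stable, since Mir22hg led in replicate 1 and Lncpint in replicate 2, and neighbours in the order of means differed by less than the larger of their SDs. Dleu2 was the lowest of these 4 in both. Between tiers the replicates did not overlap. Kcnq1ot1 lay above Mir17hg and Pvt1 in both replicates, whereas Mir17hg and Pvt1 changed places. By FASTQ-derived values the first 5 places were Lncpint, Mir22hg, Mir155hg, Dleu2 and Tug1 in both libraries, but Pvt1 then stood above Kcnq1ot1. There too 8 of the 9 were detected, against 25% of all genes.

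**Figure D1:**
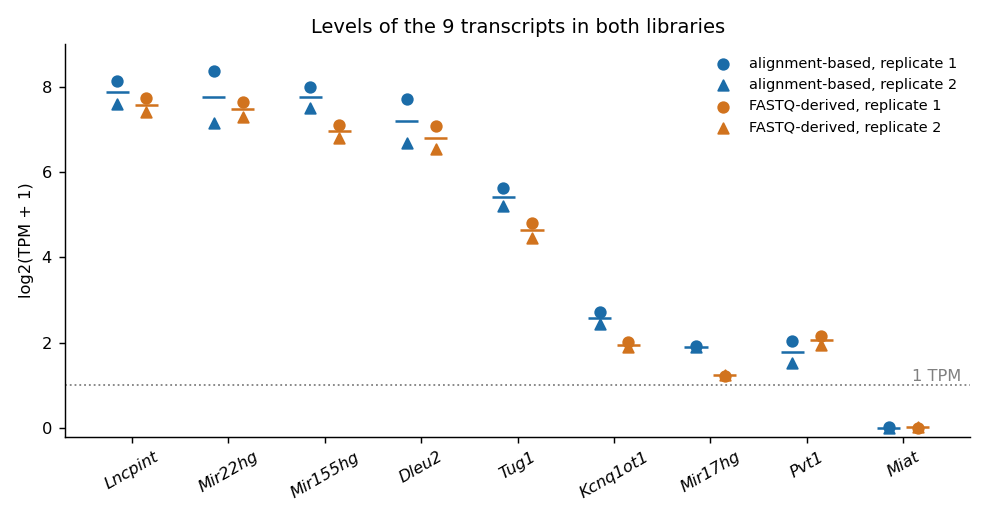
Levels of the 9 transcripts as log2(TPM + 1), with the alignment-based values in blue and the FASTQ-derived values in orange; circles are replicate 1, triangles replicate 2, short bars their mean, and the dotted line marks 1 TPM. Lncpint, Mir22hg, Mir155hg and Dleu2 form the upper tier, Tug1 stands alone, Kcnq1ot1, Mir17hg and Pvt1 lie just above the line, and Miat is at the bottom.

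Mir155hg (ENSMUSG00000097418.7, chromosome 16, 84703167 to 84715245, plus strand) is the host of miR-155, a regulator of inflammatory signalling. It had 253.76 TPM in replicate 1 and 180.81 in replicate 2 (217 ± 51.6), from 5774 and 5356 expected counts. It held rank 11 among the detected long non-coding genes. The FASTQ-derived levels were 136 and 111 TPM, 0.536 and 0.612 times the alignment-based ones. Replicate 1 was higher in both tables.

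Its 2 models differ in where they start. Mir155hg-201 (1264 nt, 2 exons) starts at 84713023 and took all expected counts, and Mir155hg-202 (1362 nt) starts at 84703167 and took none. The FASTQ-derived table gave the longer-spanning model 2.79% and 1.65% of the gene's TPM. Both tables therefore put nearly all of the transcript on the start nearer the hairpin. The Mir155 hairpin lies wholly in exon 2 of both models, at base 159 of Mir155hg-201, and is shown because it is part of the spliced transcript that was counted, with the mature arms in capitals (chr16:84714140-84714204, plus strand, GRCm38.p6).
Mir155 hairpin: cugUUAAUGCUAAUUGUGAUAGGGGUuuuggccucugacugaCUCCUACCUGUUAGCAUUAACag
Mir155 as a gene of its own, 65 nt long, had 0 counts in both libraries and in both kinds of table.

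Mir22hg (ENSMUSG00000085148.1, chromosome 11, 75461539 to 75466676, plus strand) is the host of miR-22. It had 327.33 TPM in replicate 1 and 141.31 in replicate 2 (234 ± 132), from 7618 and 4389.97 expected counts. Replicate 1 thus gave the highest single value of the 9 transcripts, and the spread between the replicates was the widest. FASTQ-derived levels were 199 and 156 TPM.

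The 2 tables divided the TPM of Mir22hg differently. Mir22hg-202 (1752 nt, 3 exons) held 64.4% and 66.4% of the gene's TPM by alignment and 92.6% ± 0.86 of its expected counts. By FASTQ-derived TPM its share was 46.4% and 30.2%, and the short model Mir22hg-201 (449 nt) led with 106.6 and 108.9 TPM. By FASTQ-derived counts Mir22hg-202 still led, with 82.8% and 75.3%. Both models carry the Mir22 hairpin in exon 2, at base 241 of Mir22hg-202 and base 136 of Mir22hg-201, so the hairpin was exonic whichever model led. Its sequence is given for the same reason as that of Mir155, with both mature arms in capitals (chr11:75463716-75463810, plus strand, GRCm38.p6).
Mir22 hairpin: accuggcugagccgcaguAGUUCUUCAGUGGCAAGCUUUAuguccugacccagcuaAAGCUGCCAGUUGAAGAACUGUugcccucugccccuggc
The hairpin gene itself had 0 counts. Tlcd2, a protein-coding gene on the same strand that overlaps Mir22hg by 4962 bp, had 18 and 17.03 expected counts, against 129 and 170 by FASTQ-derived estimate.

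Dleu2 (ENSMUSG00000097589.9, chromosome 14, 61602839 to 61682373, minus strand) is the host of miR-15a and miR-16-1, in a region deleted in human chronic lymphocytic leukaemia. It had 209.28 TPM in replicate 1 and 101.44 in replicate 2 (155 ± 76.3), from 11158.1 and 7906.72 expected counts. FASTQ-derived levels were 134 and 91.2 TPM, again higher in replicate 1.

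Dleu2 differed from Mir155hg, Mir22hg and Mir17hg in that no annotated model holds its hairpins whole in an exon. Mir15a and Mir16-1, 54 nt apart, are intronic in 8 of the 15 models. The models that took most of the counts stop or start beside them. Dleu2-207 (3530 nt, 3 exons) ends 188 nt before Mir15a and had 5217.37 and 3476.96 expected counts. Dleu2-215 (4098 nt, 1 exon, of the annotation class TEC, which awaits experimental evidence) begins inside Mir16-1 and had 4766 and 3511. These adjoining models, 406 nt apart, held 89.5% and 88.4% of the gene's expected counts and 62.1% and 67.5% of its TPM (41.7% and 36.2% FASTQ-derived). The 13 bases that Dleu2-215 shares with the hairpin are in capitals (chr14:61631880-61631972, minus strand, GRCm38.p6).
Mir16-1 hairpin: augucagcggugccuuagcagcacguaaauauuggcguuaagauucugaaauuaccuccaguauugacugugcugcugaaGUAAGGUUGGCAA
The shared bases are the last of the hairpin, so that the model starts after both mature arms.

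By length, Dleu2-207 had 1478 and 985 expected counts per kb and Dleu2-215 had 1163 and 857, with replicate 1 higher for both. The 8 models that start in the first 10 kb of the gene, the spliced long forms among them, held 3.65% ± 0.34 of the expected counts (7.55% ± 0.69 FASTQ-derived). Their share of TPM was larger, at 20.0% ± 5.13 by alignment and 44.2% ± 5.42 in the FASTQ-derived table, so the weight of these forms depended on the unit and the table. Single-exon models held 47.9% ± 1.70 of the counts and 37.6% ± 4.47 of the TPM. The short model Dleu2-206 (318 nt) had 25.87 TPM in replicate 1 and 1.75 in replicate 2, but 23.1 and 18.9 by the FASTQ-derived table, where it led in replicate 2. Its level was thus not settled by these tables.

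On the same strand inside Dleu2 lie 3 further genes, all detected, which took 7848 and 5679 expected counts of their own. Gm37472 (4052 nt, single-exon) had 1173 and 785 counts per kb, Gm37420 (2912 nt) had 916 and 742, and Gm27010 (863 nt) had 498 and 390. None shares a base with an annotated Dleu2 exon: Gm37472 and Gm37420 lie before the start of Dleu2-207 and Gm27010 after the end of Dleu2-215. Replicate 1 was higher for each. Their TPM were 57.45 and 29.06 for Gm37472, 45.81 and 28.11 for Gm37420, and 30.43 and 18.59 for Gm27010. Per kb, the counts on Gm37472 in replicate 1 thus reached those on Dleu2-215, and those on Gm27010 were the lowest of the 3 genes in both replicates. Whether they are separate transcripts or stretches of unspliced Dleu2 was not tested.

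**Figure D2:**
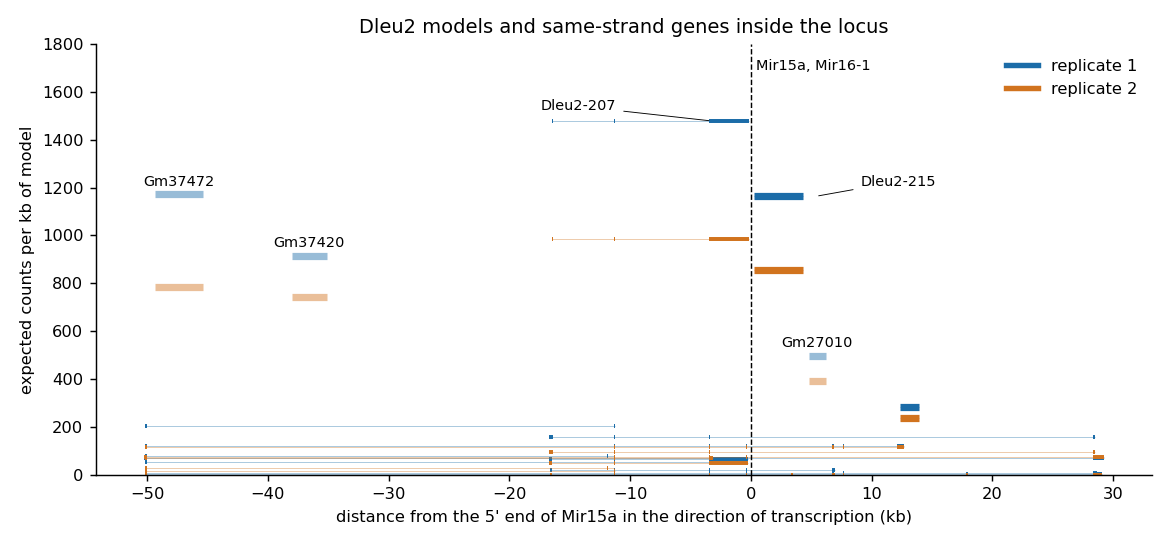
Expected counts per kb of each Dleu2 model (dark) and of the same-strand genes inside the locus (pale), against the distance in kb from the 5′ end of Mir15a in the direction of transcription; thick bars are exons (whole spans for the pale genes), thin lines introns, blue is replicate 1 and orange replicate 2. Dleu2-207 ends and Dleu2-215 begins next to the dashed line of Mir15a and Mir16-1, and the long spliced models lie near the bottom, below both.

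Mir17hg (ENSMUSG00000089726.2, chromosome 14, 115042879 to 115046727, plus strand) carries the miR-17-92 cluster, which Myc is known to activate. It had 2.79 TPM in replicate 1 and 2.73 in replicate 2 (2.76 ± 0.042), from 200 and 259 expected counts. FASTQ-derived levels were 1.32 and 1.38 TPM. This was the host with the lowest level and the smallest spread in TPM. That spread was small in TPM only. On the TMM-scaled counts described further on, the log2 ratio of replicate 2 over replicate 1 was 0.47. Its 1 model, of 3536 nt and 2 exons, holds all 6 hairpins in exon 2, between 115043671 and 115044506. Mir17 comes first, at base 480, and Mir92-1 last, at base 1236. Myc itself had 10.34 and 7.14 TPM.

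None of the 10 hairpin genes had an alignment-based count. All had an effective length of 0 there, too short for a level to be estimated, so these zeros set no upper limit. In the FASTQ-derived table Mir15a had 75 and 63 estimated counts and Mir16-1 had 1 and 4. The other 8, all exonic in their hosts, had 0. Their sequences lie whole in host models, so their fragments may have been assigned to the hosts, and these zeros set no upper limit either. The hairpins with counts were thus those that no Dleu2 exon holds whole, but whether exonic and intronic hairpins differ was not tested. Mature microRNAs were not measured by this assay.

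Lncpint (ENSMUSG00000044471.12, chromosome 6, 31082565 to 31220488, minus strand) is a p53-induced RNA that has been tied to Polycomb. It had 280.54 TPM in replicate 1 and 191.69 in replicate 2 (236 ± 62.8), from 5811 and 5038 expected counts. FASTQ-derived levels were 212 and 170 TPM, with replicate 1 higher again. It had the highest mean of the 9.

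Lncpint counts lay mostly at its 3′ end. The 5 of 16 models that lie wholly within the last 10 kb held 74.5% and 66.0% of the expected counts (70.3% ± 6.01), and 67.4% ± 2.48 of the FASTQ-derived ones. The 8 models that start in the first 10 kb held 17.0% ± 2.55 of the expected counts. Of the gene's TPM, the 3′ models held 61.7% ± 7.21 by alignment but 49.2% ± 4.23 in the FASTQ-derived table. Their weight thus depended on the unit and the table. Lncpint-206 (1632 nt, 2 exons) led with 68.01 and 45.13 TPM. Lncpint-211 had 65.46 and 32.62 TPM, and the single-exon Lncpint-207 had 53.95 and 29.91. All of these are 3′ models, and they overlap each other, so that reads could be moved between them.

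The FASTQ-derived table put another model first. Lncpint-213 (650 nt, 6 exons) had 63.2 and 49.1 TPM there, but 1.56 and 0.33 by alignment. It starts in the middle of the gene and ends in the same 3′ stretch. Inside Lncpint, on the same strand, 2 of 3 genes were detected. Of these, 5330406M23Rik had 973 and 802 expected counts per kb and Gm37728 had 194 and 182, against 1278 and 1111 for Lncpint-206. The third, the pseudogene Gm13835, was not detected.

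Tug1 (ENSMUSG00000056579.18, chromosome 11, 3639785 to 3649673, minus strand), first found as a taurine-induced RNA of the retina, had 48.10 TPM in replicate 1 and 35.67 in replicate 2 (41.9 ± 8.79). These came from 3889.78 and 4260.54 expected counts. The order of the replicates thus turned between counts and TPM. FASTQ-derived levels were 26.9 and 21.03 TPM.

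No model led Tug1 throughout. Tug1-205 (1612 nt, 1 exon) had 15.97 and 6.33 TPM, Tug1-201 (6719 nt) 11.03 and 8.52, Tug1-207 (3853 nt) 10.75 and 9.34, and Tug1-202 (4720 nt) 7.20 and 11.28. Tug1-205 led in replicate 1, Tug1-202 in replicate 2, and Tug1-207 in both libraries of the FASTQ-derived table. The 5′ end of Tug1, which Tug1-205 covers, overlaps the opposite-strand gene Morc2a by 483 bp. Morc2a, a chromatin ATPase gene, had 14.48 and 12.20 TPM. The strand setting of the counting is not given in the sources used here, so reads from the shared stretch cannot be told apart.

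Kcnq1ot1 (ENSMUSG00000101609.2, chromosome 7, 143203458 to 143296549, minus strand) is the imprinted antisense RNA that silences the Kcnq1 domain on the paternal chromosome. It had 5.55 TPM in replicate 1 and 4.38 in replicate 2 (4.97 ± 0.83), from 11090.3 and 11648.2 expected counts. FASTQ-derived levels were 3.04 and 2.72 TPM. Its only model is a single exon of 93092 nt, and over that length the counts came to 119 and 125 per kb. Kcnq1ot1 therefore held rank 2 in replicate 1 and rank 1 in replicate 2 by counts, but rank 6 by TPM.

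Kcnq1, the opposite-strand gene that contains all of Kcnq1ot1, had 2.01 and 5 expected counts. Cdkn1c, a cell-cycle inhibitor gene of the same imprinted domain, had 80 and 244 expected counts. Its TPM were 2.54 and 6.32, and on the TMM-scaled counts described further on its log2 ratio of replicate 2 over replicate 1 was 1.69, against 0.17 for Kcnq1ot1. Slc22a18 had 0.88 and 0.49 TPM and Phlda2 had 0 counts in both. With both parental alleles counted together, imprinting was not measured.

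Pvt1 (ENSMUSG00000097039.8, chromosome 15, 62037986 to 62378096, plus strand) lies just downstream of Myc and is gained together with it in cancers. It had 3.12 TPM in replicate 1 and 1.86 in replicate 2 (2.49 ± 0.89), from only 73.25 and 87 expected counts. The FASTQ-derived table gave it 307 and 385 estimated counts and 3.49 and 2.88 TPM. It was the only detected transcript of the 9 with a higher FASTQ-derived than alignment-based TPM in both libraries.

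The models of Pvt1 could not be ordered at this depth. By alignment, Pvt1-205 led in replicate 1 with 0.83 TPM and had 0 in replicate 2, where Pvt1-203 led with 0.80. In the FASTQ-derived table Pvt1-202 (3319 nt, 10 exons) led in both, with 1.07 and 0.88 TPM, and the alignment-based table listed it at 0. Models that start in the first 10 kb held 90.8% ± 3.15 of the expected counts and 80.9% ± 0.158 of the FASTQ-derived ones. Their share of TPM was smaller, at 64.7% and 86.1% by alignment and 59.8% ± 0.182 in the FASTQ-derived table. Both tables thus placed most counts on models that start near the 5′ end. These models span much of the gene, so the reads behind them need not lie at that end.

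Miat (ENSMUSG00000097767.8, chromosome 5, 112213228 to 112229395, minus strand), a nuclear RNA known mainly from neurons, had a single expected count, in replicate 1 (1 and 0). By FASTQ-derived estimate it had 3 and 13 counts, or 0.0062 and 0.0177 TPM. A limit of 3 expected counts corresponds to 0.0163 TPM in replicate 1 and 0.0336 in replicate 2, which covers counting error only. The authors' credibility intervals reached 2.14 and 2.03 TPM. Miat was thus not detectable at this depth by the counts, and 5 of its 6 models were at 0 in both libraries and both kinds of table.

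**Figure D3:**
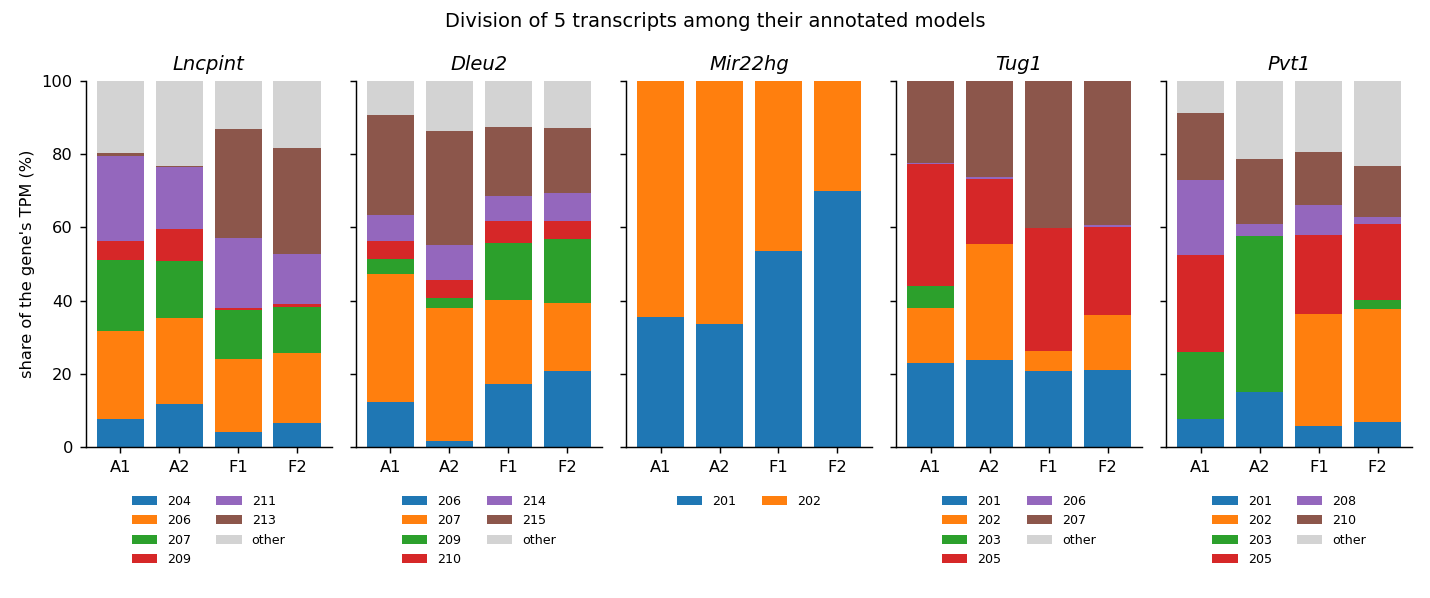
Share of each gene's TPM (%) assigned to its annotated models for the 5 transcripts divided among several models in both kinds of table; A1 and A2 are replicates 1 and 2 of the alignment-based table, F1 and F2 those of the FASTQ-derived table, and colours are model numbers within each gene. Mir22hg-201 widens from 35.6% and 33.6% in A1 and A2 to 53.6% and 69.8% in F1 and F2, and Lncpint-213 is wide only in F1 and F2.

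Over all 61 models, 13 were at 0 in both libraries by alignment and 10 in the FASTQ-derived table, and none was annotated as a retained intron. In 4 of the transcripts, Lncpint, Mir22hg, Tug1 and Pvt1, the leading model by mean TPM differed between the tables. The gene totals moved less than the models did. Among the 8 detected transcripts the ratio of FASTQ-derived to alignment-based TPM ran from 0.474 for Mir17hg in replicate 1 to 1.55 for Pvt1 in replicate 2.

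The replicates were then compared on counts scaled by TMM, a method that sets the typical gene to no change. Of the 9 transcripts, 8 averaged 10 or more expected counts, and of these 4 were lower and 4 higher in replicate 2, where 50.5% of all genes past the filter were lower. A difference of 1.5-fold or more was seen in 1 of the 8, against a background of 17.2% of 14527 genes, 10.4% of them lower and 6.88% higher in replicate 2. Mir22hg had a log2 ratio of -0.70, 1.62-fold higher in replicate 1, and 12.4% of genes lay as far from 0. Dleu2 followed with -0.40 (29.8% of genes as far), and Mir17hg had 0.47 (24.1%). Lncpint at -0.11, Mir155hg at -0.01, Kcnq1ot1 at 0.17, Tug1 at 0.23 and Pvt1 at 0.35 were nearer to 0. The SD of the log2 ratio was 0.39 over the 8653 genes with at least 100 counts, a distance that Mir22hg, Dleu2 and Mir17hg exceeded and the other 5 did not.

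The median of the 8 was 0.08 and that of all genes past the filter -0.00. On the scale of TPM + 1, the median of all genes past the filter was -0.36. All 8 were lower in replicate 2 there, Mir17hg by only 0.02, and the median of the 8 was -0.51. The lower TPM in replicate 2 was thus shared with the typical gene, and Tug1, Kcnq1ot1, Pvt1 and Mir17hg were lower there but higher on TMM-scaled counts. Relative to the shift of -0.36, Mir17hg at 0.34 and Kcnq1ot1 at 0.08 were higher in replicate 2 on this scale too. Tug1 at -0.06 and Pvt1 at -0.17 were lower. With TPM rescaled over genes with an effective length of at least 200 nt, however, Tug1 had 129.5 in replicate 1 and 137.3 in replicate 2. The direction of Tug1 thus depended on the scaling. Pvt1 was lower in replicate 2 there too, at 8.40 and 7.16, although its expected counts rose from 73.25 to 87. Its TPM rested on effective lengths of 1090 and 1631 nt, a difference that rescaling leaves in place. On TMM-scaled counts its log2 ratio of 0.35 had a standard error of 0.23 from counting alone. The direction of Pvt1 was thus not settled by these values. Mir22hg and Dleu2 were lower in replicate 2 on TMM-scaled counts and on TPM + 1, and also in the FASTQ-derived counts (-0.62 and -0.46). The same-strand genes inside Dleu2 were also lower on TMM-scaled counts, with -0.48 for Gm37472, -0.25 for Gm27010 and -0.21 for Gm37420. So were 50.5% of all genes past the filter, and Gm27010 and Gm37420 lay within the SD of 0.39. The biological coefficient of variation over the 14527 genes past the filter was 0.176. It comes from 2 libraries with the same donor identifier and different RNA inputs, so it may not show the spread between animals.

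**Figure D4:**
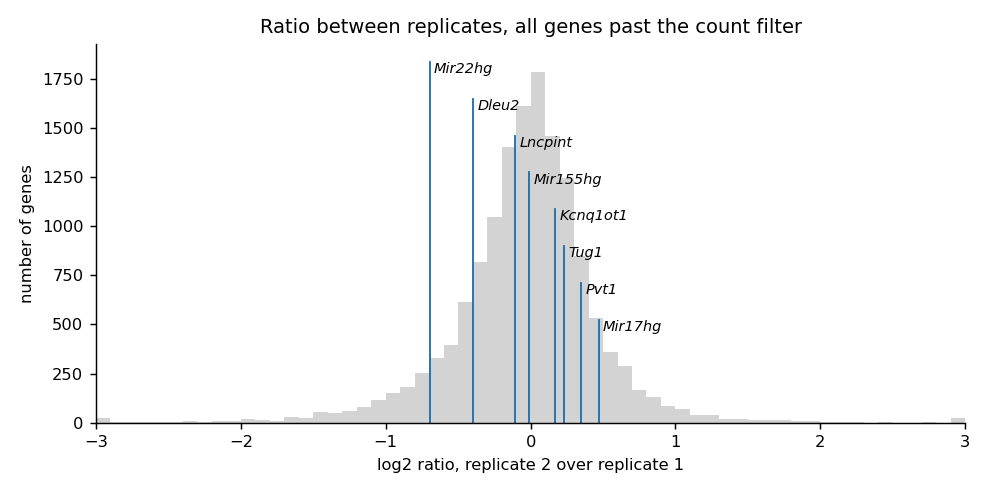
Number of genes by log2 ratio of replicate 2 over replicate 1, from TMM-scaled counts, for 14527 genes in bins of 0.1, with values beyond 3 in either direction placed in the end bins. Blue lines mark the 8 transcripts past the count filter, of which Mir22hg at -0.70 and Dleu2 at -0.40 lie farthest to the left and Mir17hg at 0.47 farthest to the right; the heights of the lines only keep the names apart.

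The genes listed as neighbours of the 9 transcripts did not share one level. Of 17 named neighbours, all protein-coding, 8 were detected, against 40% of protein-coding genes, with a median over the 17 of 1.00 ± 0.0141 TPM. Mkln1, near Lncpint, had 52.16 and 32.06 TPM, Wdr81, near Mir22hg, 19.86 and 12.56, and Mrpl39, a mitochondrial ribosomal protein gene next to Mir155hg, 19.13 and 12.26. Each of these lay below its non-coding neighbour in both replicates. Myc, in contrast, lay above Pvt1 in both, at 10.34 and 7.14 TPM against 3.12 and 1.86. Cdkn1c lay below Kcnq1ot1 in replicate 1 and above it in replicate 2. Trim13 and Kcnrg, on the opposite strand to Dleu2, had 7.27 and 5.61, and 4.04 and 3.11 TPM. Jam2, beyond Mrpl39 on the same side of Mir155hg, had 0.56 and 0.48 TPM. Crybb1, Crybb2, Dleu7, Phlda2 and Gpc5 had 0 expected counts in both libraries. Crybb1, from 112255815, lies near Miat, and Gpc5 lies downstream of Mir17hg. Crybb2, from 113058258 on chromosome 5, lies farther from Miat, and Dleu7, from 62276231 on chromosome 14, lies far from Dleu2.

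The genes of the microRNA pathway were all present as nuclear RNA. All 14 were detected, against 40% of protein-coding genes, with a median of 7.03 ± 1.49 TPM, close to the 7.38 of detected protein-coding genes. For the nuclear steps, Drosha had 7.44 and 5.66 TPM, Dgcr8 5.16 and 3.99, and Xpo5, which codes for exportin 5, 3.43 and 2.41. Dicer1 had 8.73 and 6.29 TPM, and Ago1 and Ago4 had 6.06 and 4.51, and 6.07 and 2.83. The highest levels were among Argonaute and Tnrc6 genes, whose proteins form the silencing complex. Ago3 had 42.56 and 20.17 TPM, Tnrc6b 34.40 and 22.49, Tnrc6a 21.02 and 15.56, and Ago2 15.22 and 12.39. Mir155hg, Mir22hg and Dleu2 thus stood above every gene of this list in both replicates, while Mir17hg stood below every one in replicate 1 and above only Xpo5 in replicate 2.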

How the data were processed

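Total RNA-seq of 2 libraries of 1 group was analysed. Per the labels, the build was mm10, and per the notes deposited with the tables the annotation was GENCODE M21. The authors made a gene and a transcript table per library by alignment to the transcriptome, and another transcript table from the FASTQ files. Which aligner, quantifiers, versions and strand setting were used is not given in the sources used here. By their headers, the deposited alignment-based tables hold expected counts, TPM, posterior mean TPM and credibility bounds, and the FASTQ-derived table holds estimated counts and TPM, which were summed per gene. TPM is scaled within a library, so many short RNAs lower the TPM of long ones.

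The 9 members and all lists were chosen with earlier results of these data known. All 9 members, every model with at least 5% of its gene's TPM in both replicates or either table, every hairpin inside a member, and lists of neighbours, microRNA pathway genes and other host genes were eligible to be named. Detection was set at 1 TPM or more in both replicates. With 1 group, no test between conditions exists and no p-value is given. Expected counts were rounded for edgeR 4.0.16 (R 4.3.3), with TMM scaling over the 14527 genes that averaged 10 or more expected counts, and a prior count of 1. The calculation of the ratio between replicates was checked on simulated counts with known folds, which does not test the observed ratios. Alternatives were DESeq2 1.42.0 size factors, TMM over protein-coding genes, other count filters, FASTQ-derived values, posterior mean TPM, rescaled TPM, other detection thresholds and each replicate alone. The FASTQ-derived totals were 26929533 and 33536257 estimated counts. A limit of 3 counts covers counting error alone, because reads lacking molecular identifiers may be copies of 1 molecule. Coordinates are 1-based on mm10, and microRNA sequences are those of RefSeq on GRCm38.p6, in which all 10 hairpins had mature sequences. The FPKM columns were not used here.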

Additional observations from a re-analysis of the deposited data

How the results depend on the processing

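At a threshold of 5 TPM, 5 of the 9 transcripts and 8 of the 14 microRNA pathway genes were detected. The median TPM of the 9 was 24.0 in the FASTQ-derived table, 133 when rescaled over genes with an effective length of at least 200 nt and 156 when rescaled over protein-coding genes. Their share of counts was 0.248% over long non-coding and protein-coding genes of that length. The median log2 ratio was -0.061 in FASTQ-derived counts and -0.51 on TPM + 1. The FASTQ-derived table gave 2 hairpins with a count in place of 0, and 4 other host genes detected in place of 2. With either replicate alone, the median TPM ran from 35.7 to 48.1, the share from 0.212% to 0.234%, and the number detected was 8 throughout, 14 for the pathway genes, 8 to 9 for the neighbours and 2 for other hosts. A mean of 2 values lies within their range by construction, so this is no sign of stability. Rescaling multiplies every TPM of a library by the same factor, so it moved all 9 values and could not change their order within a library. FASTQ-derived values moved 4 of the 9 by more than 1 SD. DESeq2 size factors, TMM over protein-coding genes and other count filters kept the direction of all 8 log2 ratios. These settings change only the library scaling and shift every gene by nearly the same amount, so this is no sign of stability either. FASTQ-derived counts moved 6 of the 8, taking Tug1 from 0.23 to 0.02, and turned Pvt1 from 0.35 to -0.01. FASTQ-derived shares of the leading model moved by more than 1 SD in 5 of 8 transcripts. Kcnq1ot1 and Mir17hg, with 1 model each, could not move. Mir155hg was counted as moved from 100% to 97.8% because its SD was 0, while Tug1 stayed within a wide SD of 10.9. No paired analysis was possible because there is only 1 group. Depth limits Pvt1, Mir17hg and Miat most, the 3 with the fewest counts.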

Other observations

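The annotation names 7 further microRNA host genes in the style of Mir155hg, and 2 of them were detected, against 7.23% of long non-coding genes. Mir99ahg (chromosome 16, 77236317 to 77773427), the host of the miR-99a and let-7c cluster, had 65.42 TPM in replicate 1 and 35.76 in replicate 2, from 2599 and 2044 expected counts. It thus stood between Dleu2 and Tug1 in replicate 1 and level with Tug1 in replicate 2. Mir142hg (chromosome 11, 87755577 to 87757270), the host of miR-142, a microRNA of blood cells, had 53.80 and 16.96 TPM, but from only 86 and 27 expected counts over an effective length of 74.3 and 55.6 nt. Its TPM therefore rests on few fragments, and the FASTQ-derived levels were 43.4 and 26.7 TPM. Of the others, Mir670hg had 2 and 0 expected counts by alignment and 178 and 245 by FASTQ-derived estimate. In the FASTQ-derived table it had 3.67 and 3.58 TPM.

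Opposite-strand genes also lay inside the larger transcripts. Gm27017, antisense to Dleu2 upstream of Dleu2-207, had 17.05 TPM in replicate 1 and 8.20 in replicate 2. Gm13833, antisense to Lncpint, had 89 and 30 expected counts but 956 and 1015 by FASTQ-derived estimate. As a ratio, this was the widest difference between the tables among the long genes overlapping the 9 transcripts that were detected. Of 20 annotated structured-RNA fragments overlapping the 9 transcripts, 3 were detected, and 19 had an effective length under 200 nt.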
